A study of Homo sapiens with 8 samples.

Results

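The inhibitors of NF-κB, the IκB family, were followed in salivary gland cells given the inflammatory cytokine TNF-α. The family was taken as 6 genes, NFKBIA, NFKBIB, NFKBIE, NFKBIZ, NFKBID and BCL3, out of 18239 genes measured, and was read by all 15 probe sets that the array's annotation pairs with those symbols. NFKBIA has 3 probe sets, NFKBIB 4, NFKBIE 1, NFKBIZ 1, NFKBID 2 and BCL3 4.

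The IκB proteins are built on ankyrin repeats, with which they grip NF-κB dimers. The classical members IκBα (NFKBIA), IκBβ (NFKBIB) and IκBε (NFKBIE) hold NF-κB in the cytoplasm. When TNF-α binds its receptor, the IKK kinases phosphorylate these inhibitors, a ubiquitin ligase marks them for the proteasome, and the freed NF-κB enters the nucleus, where NFKBIA is one of its target genes and so closes a negative feedback loop. The nuclear members IκBζ (NFKBIZ), IκBNS (NFKBID) and BCL3 act at the DNA, mostly with the p50 or p52 subunits, and can raise or lower the transcription of chosen targets. In salivary glands TNF-α is studied for its part in the inflammation of Sjögren's disease.

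All arrays were of NS-SV-AC, a human cell line. It was made by immortalising acinar cells of a salivary gland, the cells that secrete saliva. The cells received TNF-α at 20 ng/ml or BSA (bovine serum albumin, a carrier protein that served as the control) for 2, 6, 12 or 24 h. Each of the 8 combinations was measured on 1 Affymetrix array, so there were 4 arrays per treatment, no replicate at any time, and 1 cell line as the model. Values are log2 RMA intensities of messenger RNA, not protein, and a difference is the TNF-α array minus the BSA array of the same time, so that 1 unit is a 2-fold difference.

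The array of TNF-α at 24 h stood apart. The gap between the GAPDH probe sets of the 3′ and 5′ ends was 6.28 there and 0.20 to 0.37 elsewhere, and its mean correlation with the others across genes was 0.925, against 0.968 to 0.978 for the rest. A wide 3′ to 5′ gap is a usual sign of degraded RNA, so the tests of the members are given with and without the 24 h pair. Of 11 measured salivary acinar markers only the transporter SLC12A2 lay above the median gene level of 5.16, and the water channel AQP5 had a median of 4.06 over the arrays. Of 7 measured epithelial markers only the keratins KRT8 and KRT18 had medians over the arrays above that level. At 24 h KRT8 read 6.37 with BSA and 2.72 with TNF-α, and KRT18 read 9.84 and 7.36. At 2, 6 and 12 h they read 8.59 to 8.91 and 9.98 to 10.33. The epithelial list's summed log2 level was 34.17 to 38.04 with BSA and 30.59 to 37.41 with TNF-α. The part of RNA quality in the 24 h values was not tested. Of 6 fibroblast markers 3 lay above the median gene level. They were the collagen COL3A1 with a median of 9.23, the proteoglycan LUM with 7.79 and the growth factor receptor PDGFRB with 6.00. LUM was higher, and COL3A1 and PDGFRB were lower, with TNF-α at all 4 times. The fibroblast list's summed log2 level was 34.24 to 35.16 with BSA and 34.32 to 35.84 with TNF-α. All samples were of 1 cell line. Fewer cells with a marker and less of its RNA per cell cannot be told apart in such bulk samples. None of 5 measured leukocyte markers reached the median gene level. Their summed log2 level was 16.12 to 16.52 with BSA and 16.59 to 17.23 with TNF-α. These sums add dim readings of 2.70 to 4.74, where the arrays' lower quartiles were 3.37 to 3.51. The part of any of these lists in the differences below was not tested.

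The stretches of DNA before the genes' start sites are shown because 4 members were at least 2-fold higher with TNF-α from 2 to 12 h, and NF-κB is known to bind κB sites, short partly symmetrical sequences rich in G and C at their ends. RefSeq promoter sequences (GRCh38.p14) matched 5 of the 6 genes, with 9 start sites in all. NFKBIE had no entry. The 250 bases before each start site were searched on both strands for the κB consensus GGGRNWYYCC, which 5.21% of all 35116 promoters held. In it R is A or G, W is A or T, Y is C or T and N is any base. The shorter fixed sequence GGAATTTCC was also searched, and 0.413% held it. It overlaps the consensus but lacks its first G, so it can occur without a consensus match. It was chosen after these sequences had been seen. Below, capitals mark matches to the κB consensus, and each sequence runs 5′ to 3′ on the gene's strand.

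The stretch before the start site of NFKBIA (chr14:35404750-35404999, minus strand) holds 1 match, 81 to 72 bases before the start. The stretch before the first start site of NFKBIZ (chr3:101827740-101827989, plus strand) also holds 1 match, 223 to 214 bases before the start.
NFKBIA: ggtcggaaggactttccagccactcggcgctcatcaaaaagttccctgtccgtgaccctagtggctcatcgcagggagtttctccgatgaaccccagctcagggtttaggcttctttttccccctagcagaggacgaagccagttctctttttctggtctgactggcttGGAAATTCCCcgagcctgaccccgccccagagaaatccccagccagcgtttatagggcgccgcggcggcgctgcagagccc
NFKBIZ: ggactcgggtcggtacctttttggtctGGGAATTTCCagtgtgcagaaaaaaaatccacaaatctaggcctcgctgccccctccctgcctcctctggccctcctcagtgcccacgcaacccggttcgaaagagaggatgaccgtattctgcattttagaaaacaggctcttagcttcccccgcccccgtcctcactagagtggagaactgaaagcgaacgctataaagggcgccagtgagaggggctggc

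Matches stood before 6 of the 9 start sites, of 4 of the 5 genes, and 30 bases around each of the other 4 sites are given for comparison. They lie at chr19:38899931-38899960 (plus strand, the second start site of NFKBIB), chr3:101849265-101849294 (plus strand, the second start site of NFKBIZ), chr19:35900613-35900642 (minus strand, the second start site of NFKBID) and chr19:35899922-35899951 (minus strand, the third start site of NFKBID).
NFKBIB start site 2: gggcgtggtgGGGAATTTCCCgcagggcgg
NFKBIZ start site 2: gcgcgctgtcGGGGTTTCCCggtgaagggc
NFKBID start site 2: agcgcgacccGGGGACTCCCaggcctgtgg
NFKBID start site 3: gggctgagcaGGAATTCCCCttgcgcgggg

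GGAATTTCC was found on one strand or the other before NFKBIA, the first start site of NFKBIZ and the second of NFKBIB. A match therefore stood before NFKBIA and NFKBIZ, which were at least 2-fold higher with TNF-α at 2, 6 and 12 h, and also before NFKBIB and NFKBID, which were not. The window before the 1 listed start site of BCL3 held neither sequence. A match is a description of the letters and does not show binding.

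How did the family respond as a whole? With TNF-α the messenger RNAs of NFKBIA, NFKBIE and BCL3 rose over 2, 6 and 12 h, by 3.23, 2.54 and 2.09 on the log2 scale, and NFKBIZ was 2.86 higher without passing the test. NFKBIB was 0.46 higher and NFKBID 0.15 higher, and neither passed. The 4 genes with large differences hold both classical and nuclear members, and so do those with small ones. The limma fit, with Benjamini-Hochberg adjustment across the 18239 genes, called 3 of 6 members higher over 2, 6 and 12 h, where it called 0.318% of all genes higher. It called 0 of 6 lower, where 0.0493% of all genes were. Over the 4 times it called NFKBIA alone, 1 of 6, where 0.0164% of all genes were called. Tested probe set by probe set, 2 of the 15 passed over the 4 times and 5 over 2, 6 and 12 h, all higher. Of 45253 probe sets 0.00442% and 0.186% did. Those of the family over the 4 times were all of NFKBIA. Those over 2, 6 and 12 h were all probe sets of NFKBIA, that of NFKBIE and the brightest of BCL3. Probe sets of 1 gene are not independent, and no gene was added to the calls above. The members' median difference was 2.32 over 2, 6 and 12 h and 1.95 over the 4 times, against −0.01 and 0.04 for all genes. Every TNF-α array lay above every BSA array for 4 of 6 members over the 4 times, which was so for 3.58% of all genes. Over 2, 6 and 12 h it was so for 5 of 6 members, NFKBIB included, and for 6.18% of all genes.

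**Figure D1:**
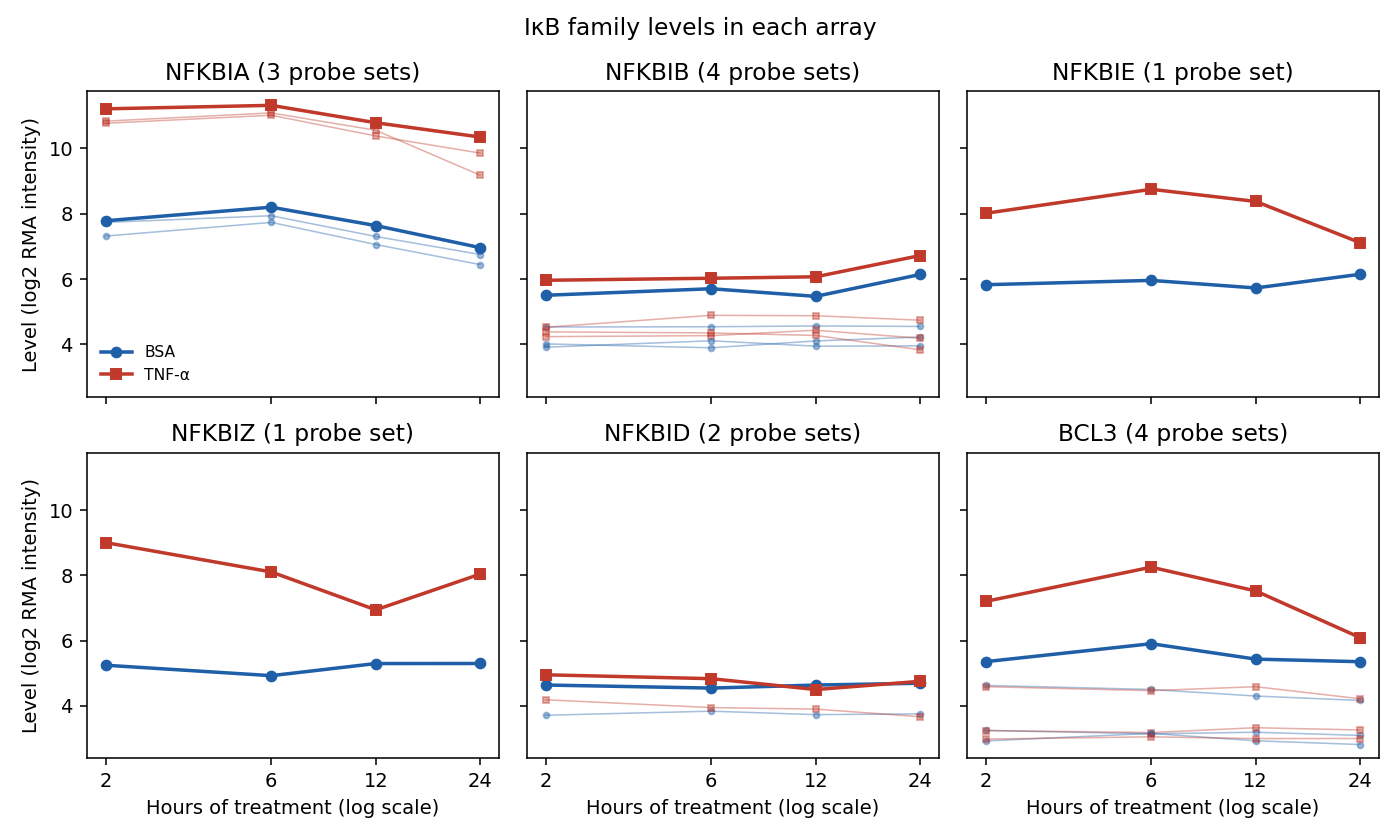
Level (log2 RMA intensity) against hours of treatment on a log scale, with BSA as blue circles and TNF-α as red squares, 1 array per point. Thick lines are the brightest probe set of each gene and faint lines its other probe sets. The lines of NFKBIA, NFKBIE and NFKBIZ stay apart at every time, as does the thick line of BCL3, while those of NFKBIB and NFKBID run close together.

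At single times the same 4 members were at least 2-fold higher at 2, 6 and 12 h, where 0.493%, 1.38% and 1.29% of all genes were. At 24 h NFKBIA and NFKBIZ were at least 2-fold higher, where 6.10% of genes were, on the array with the wide 3′ to 5′ gap. No member was at least 2-fold lower at any time. Of the 18239 genes 8, 70, 153 and 1216 were at 2, 6, 12 and 24 h, so none among 6 is near those shares. At 24 h the median difference of all genes was 0.20, and it was between −0.02 and 0.00 at the earlier times.

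NFKBIA, the classical inhibitor that NF-κB itself induces, had the largest mean difference of the family, and one that was alike at all 4 times. On its brightest probe set (11757894_x_at) the BSA arrays read 7.79, 8.20, 7.64 and 6.96 at 2, 6, 12 and 24 h. The TNF-α arrays read 11.21, 11.32, 10.79 and 10.35. The groups did not overlap, and the lowest TNF-α array stood 2.15 above the highest BSA array. The differences were 3.43, 3.12, 3.15 and 3.39, which are 10.8-fold, 8.69-fold, 8.87-fold and 10.5-fold. NFKBIA ranked 14th, 35th, 32nd and 28th from the highest among 18239 differences at these times.

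Both arms drifted alike on that probe set. From 2 to 24 h NFKBIA moved by −0.82 with BSA and by −0.86 with TNF-α, so both levels were lower at the end while the difference went from 3.43 to 3.39. The other probe sets (11745878_x_at and 11744000_a_at) gave differences of 3.10 to 3.25 and 3.28 to 3.46 over 2, 6 and 12 h. At 24 h they parted, with 2.43 on the former and 3.42 on the latter. The spread among the probe sets of NFKBIA was thus wider at 24 h, on the array with the wide 3′ to 5′ gap, than at any earlier time, and the part of RNA quality in it was not tested.

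Here and below ± gives limma's moderated SE, which draws partly on the spread of all genes. It can therefore be smaller than the SE of a gene's own pairs alone. With limma NFKBIA rose by 3.27 ± 0.09 over the 4 times (SE, 4 pairs of arrays, adjusted p = 0.00365). Over 2, 6 and 12 h NFKBIA rose by 3.23 ± 0.09 (3 pairs, adjusted p = 0.00119). It was higher in 4 of 4 pairs. The size was steady when any 1 pair was left out of the 4, from 3.22 to 3.32, but the call rests on all the earlier pairs: adjusted p was 0.0798 without 2 h, 0.0845 without 6 h and 0.117 without 12 h. Leaving 6 h out of the 3 earlier pairs gave adjusted p = 0.0553.

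**Figure D2:**
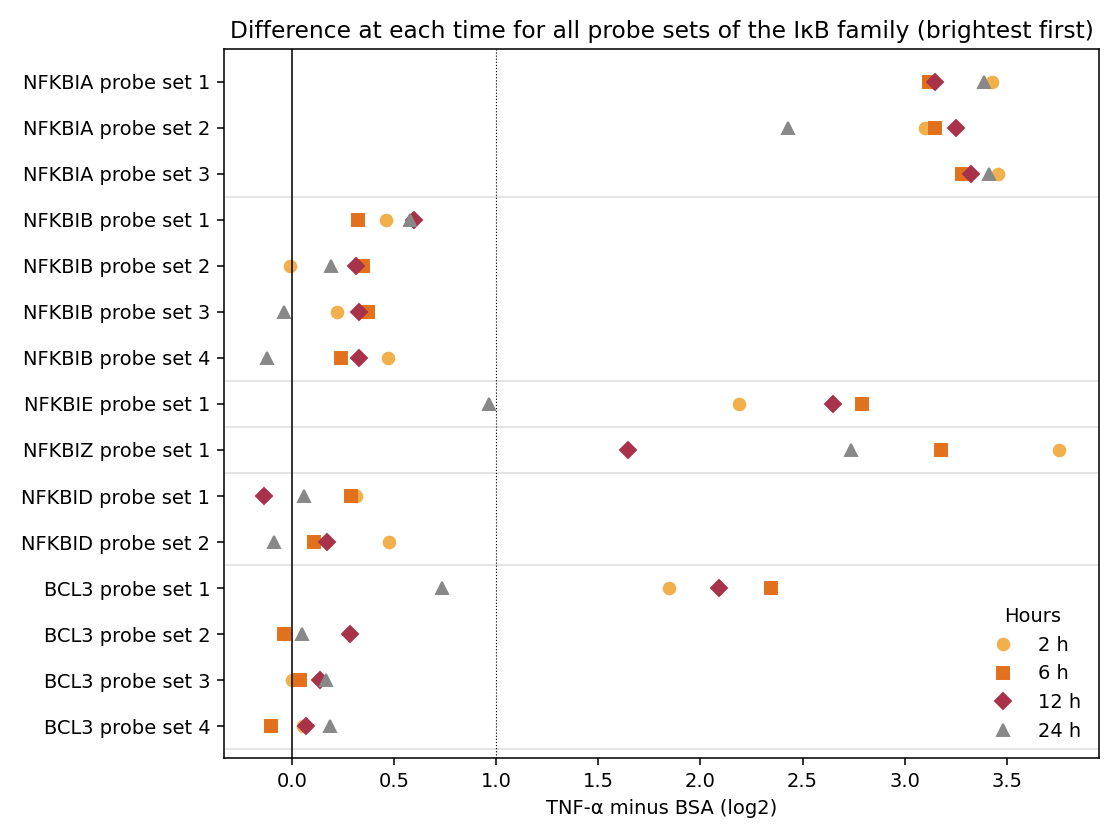
TNF-α minus BSA (log2) at 2, 6, 12 and 24 h for each of the 15 probe sets, the brightest of each gene first, 1 pair of arrays per point; the dotted line marks a 2-fold difference. All 3 probe sets of NFKBIA lie between 2.43 and 3.46, and of the 4 probe sets of BCL3 only the brightest lies away from 0.

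NFKBIE encodes IκBε, a classical inhibitor that is also known as an NF-κB target. Its 1 probe set (11743007_at) read 5.83, 5.96, 5.73 and 6.15 with BSA at 2, 6, 12 and 24 h and 8.01, 8.75, 8.38 and 7.11 with TNF-α. Every TNF-α array was above every BSA array, by at least 0.97. The differences of 2.19, 2.79 and 2.65 at 2, 6 and 12 h (4.56-fold, 6.92-fold and 6.28-fold) were followed by 0.97 at 24 h. The TNF-α level peaked at 6 h, while the BSA arrays stayed between 5.73 and 6.15.

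NFKBIE rose by 2.54 ± 0.13 over 2, 6 and 12 h (SE, 3 pairs, limma adjusted p = 0.00476). Over the 4 times it was 2.15 ± 0.32 higher and did not pass (adjusted p = 0.368), although higher in 4 of 4 pairs. Without the 6 h pair the difference over 2 and 12 h was 2.42, with adjusted p = 0.0677.

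NFKBIB encodes IκBβ, the classical inhibitor known for a slower turnover than IκBα. Its brightest probe set (11725836_x_at) read 5.50, 5.70, 5.47 and 6.14 with BSA and 5.96, 6.02, 6.07 and 6.72 with TNF-α. The groups overlapped, since BSA at 24 h lay above TNF-α at 2, 6 and 12 h. Within each time TNF-α was higher in 4 of 4 pairs, by 0.46, 0.32, 0.60 and 0.58, or at most 1.52-fold. NFKBIB was 0.49 ± 0.09 higher over the 4 times (limma adjusted p = 0.450) and 0.46 ± 0.08 over 2, 6 and 12 h (adjusted p = 0.158), so neither difference passed. On the other 3 probe sets the differences lay between −0.12 and 0.47. The level of NFKBIB was 0.64 higher with BSA at 24 h than at 2 h, a change as large as any of its differences between treatments.

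NFKBIZ encodes IκBζ, a nuclear member made soon after inflammatory signals, which is needed for some secondary targets of NF-κB such as IL6 and LCN2. Its 1 probe set (11757513_at) read 5.25, 4.93, 5.30 and 5.30 with BSA at 2, 6, 12 and 24 h. With TNF-α it read 9.00, 8.11, 6.94 and 8.04. No array of either group overlapped the other, and the smallest gap was 1.64. The response was highest at 2 h and lowest at 12 h, with differences of 3.76, 3.18, 1.64 and 2.74 (13.5-fold, 9.05-fold, 3.13-fold and 6.68-fold). At 2 h NFKBIZ ranked 11th of 18239 genes, above NFKBIA at 14th, and at 12 h it ranked 117th.

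NFKBIZ had the largest standard error of the 6 members in both fits and did not pass. It was 2.86 ± 0.38 higher over 2, 6 and 12 h (moderated SE, 3 pairs, limma adjusted p = 0.0723). Over the 4 times it was 2.83 ± 0.34 higher (adjusted p = 0.312), and higher in 4 of 4 pairs. Each fit without 1 of the 3 pairs had 1 residual degree of freedom. Such fits called 57 genes without 12 h, 1094 without 2 h and 0 without 6 h, against 67 with all 3 pairs. NFKBIZ passed without the 12 h pair of the 3 (3.47, adjusted p = 0.00129) and without the 2 h pair of the 3 (2.41, adjusted p = 0.00184). It also passed over the 4 times with array quality weights (2.94, adjusted p = 0.0365). It did not pass without the 6 h pair of the 3 (2.70, adjusted p = 0.621) or over the 3 times with array weights (2.94, adjusted p = 0.0608). From 2 to 12 h its level moved by −2.06 with TNF-α and by 0.05 with BSA. The later value of 8.04 comes from the 24 h array and has no second array beside it.

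BCL3, a nuclear member that acts with p50 and p52, gave a large difference on 1 of its 4 probe sets. On the brightest (11725445_x_at) BSA read 5.36, 5.91, 5.43 and 5.36, and TNF-α read 7.20, 8.25, 7.52 and 6.09. The groups did not overlap, but the gap was 0.18, between BSA at 6 h and TNF-α at 24 h. The differences were 1.85, 2.34 and 2.09 at 2, 6 and 12 h (3.59-fold, 5.08-fold and 4.25-fold) and 0.74 at 24 h.

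The other 3 probe sets of BCL3 (11760472_x_at, 11725446_a_at and 11760471_at) read between 2.82 and 4.63 on all arrays, and their differences lay between −0.10 and 0.29. The median of all probe sets was 4.33 to 4.36 on each array, so these 3 were dim or near the middle. BCL3 rose by 2.09 ± 0.11 over 2, 6 and 12 h on the brightest probe set (3 pairs, limma adjusted p = 0.00519). With the mean of its 4 probe sets the difference was 0.56 (adjusted p = 0.0641), so the call and the size depend on that choice. Over the 4 times BCL3 was 1.75 ± 0.28 higher and did not pass (adjusted p = 0.387), and without the 6 h pair of the 3 the adjusted p was 0.0677.

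NFKBID encodes IκBNS, a nuclear member studied mostly in lymphocytes and macrophages. Its brightest probe set (11737715_a_at) read 4.64, 4.55, 4.64 and 4.70 with BSA and 4.95, 4.84, 4.50 and 4.75 with TNF-α. The groups overlapped, and the differences were 0.31, 0.29, −0.14 and 0.06. The other probe set (11745307_a_at) gave 0.47, 0.11, 0.17 and −0.09. NFKBID was 0.15 ± 0.11 higher over 2, 6 and 12 h (limma adjusted p = 0.580) and 0.13 ± 0.11 over the 4 times (adjusted p = 0.676). Probe set 11745307_a_at read 3.67 to 4.19. On every array both probe sets lay below the median gene level of 5.16, and whether they could register a rise was not tested.

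**Figure D3:**
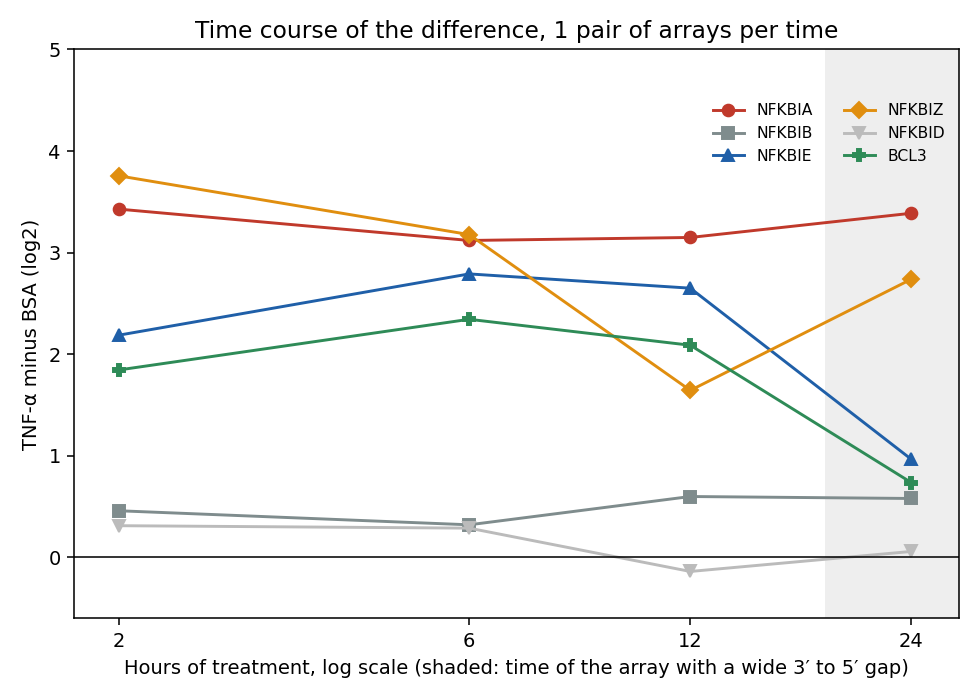
TNF-α minus BSA (log2) against hours of treatment on a log scale for the brightest probe set of each of the 6 genes, 1 pair of arrays per point. NFKBIA stays between 3.12 and 3.43, NFKBIZ goes from 3.76 at 2 h to 1.64 at 12 h, and NFKBIE and BCL3 are highest at 6 h with 2.79 and 2.34; the shaded 24 h values come from the array with the wide 3′ to 5′ gap.

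Did the response of any member depend on time? The courses differed in shape. NFKBIA was nearly level, NFKBIZ was highest at the first time, and NFKBIE and BCL3 were highest at 6 h. A limma model fitted a straight line in log2 hours to each treatment and tested the difference of their slopes. It called 0 of 6 members and 0 of 18239 genes. This model was not paired by time, so departures from a line that both treatments share add to its error. At an unadjusted p under 0.05 it had 0 members and 675 genes. The slope of the difference per doubling of hours was −0.40 ± 0.26 for NFKBIZ (adjusted p = 0.827), −0.27 ± 0.25 for NFKBIE (0.832), −0.26 ± 0.32 for BCL3 (0.856) and −0.02 ± 0.18 for NFKBIA (0.979). For NFKBIB it was 0.05 ± 0.13 (0.929) and for NFKBID −0.10 ± 0.08 (0.827). Without the 24 h pair the slope of NFKBIZ was −0.78 ± 0.17 and that of NFKBIA −0.12 ± 0.20. Those of NFKBIE and BCL3 were then 0.20 and 0.11, so their negative slopes rest on that time. NFKBIB had 0.04 and NFKBID −0.16, and no member passed in that fit. These shapes are therefore descriptions of single pairs of arrays.

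Which other genes followed the same course? Over the 6 arrays of 2, 6 and 12 h each member that spanned at least 2 log2 units was set against the 204 other genes that did so. The arrays form 2 clusters by treatment, so these correlations mostly show the treatment and are given only to rank genes. Nearest to NFKBIA were CCL2, a monocyte attractant (r = 0.997), TNFAIP3, the feedback inhibitor A20 (0.993), EDN1 (0.987), PTGER4 (0.985) and RGS3 (0.982). Nearest to NFKBIZ were CD83 (0.996), the chemokine CCL20 (0.993), the cytokine IL6 (0.991), EFNA1 (0.989) and the neutrophil attractant CXCL8 (0.989). CD83, like NFKBIZ, was highest at 2 h, with 4.40, 3.23 and 2.23 at 2, 6 and 12 h, and CCL20 went from 7.25 to 3.63 between 2 and 12 h.

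NFKBIE and BCL3 shared neighbours. Nearest to NFKBIE were GRAMD2B (r = 0.995), the NF-κB subunit gene RELB (0.995), VCAM1 (0.993), KLF4 (0.993) and SLC12A7 (0.992). Nearest to BCL3 were SLC12A7 (0.998), GRAMD2B (0.989), FOSL2 (0.987), TNFAIP2 (0.987) and NFKB1 (0.983). Among the members themselves, over the same 6 arrays, the highest correlation was that of NFKBIE with BCL3 (0.985) and the lowest that of NFKBIZ with BCL3 (0.836).

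The family was then set beside the genes it works with, over 2, 6 and 12 h. Of all genes 0.318% were called higher and 0.0493% lower, so a short list with no gene called is near that share. Of the 5 NF-κB subunit genes 2 passed. RELB rose by 2.51 ± 0.17 (SE, 3 pairs, limma adjusted p = 0.0125), and NFKB1, whose precursor p105 carries ankyrin repeats and itself acts like an IκB, rose by 2.32 ± 0.18 (0.0171). NFKB2, whose precursor p100 does likewise, was 0.45 ± 0.08 higher, REL 1.10 ± 0.35 and RELA, the main partner of IκBα, 0.30 ± 0.09. These 3 did not pass. With BSA, NFKB2 read 3.78 to 4.26 and REL 3.95 to 4.87, below the median gene level of 5.16. Whether the dim probe set of NFKB2 could register a larger rise was not tested. Over the 4 times none of the 5 subunit genes passed (limma), where NFKBIA alone did among the inhibitors.

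Of the 10 genes of the IKK complex and the kinases before it, 1 passed. MAP3K14, the kinase NIK of the non-canonical pathway, rose by 1.39 ± 0.12 (limma adjusted p = 0.0210), and over the 4 times it was 1.15 ± 0.22 higher and did not pass (adjusted p = 0.483). IKBKE was 1.01 ± 0.17 higher and TAB3 0.31 ± 0.15, and CHUK, which encodes IKKα, differed by −0.30 ± 0.11, and these did not pass. None of the 5 ligase genes that mark IκB for destruction passed (limma, all 5 between −0.10 and −0.01), with BTRC, the β-TrCP that recognises phosphorylated IκB, at −0.10 and CUL1 and SKP1 at −0.10 and −0.08. None of the 5 other binders and IκB-like genes passed, which lay between −0.17 and 0.10, with COMMD1 at −0.17, NKIRAS2 at −0.11 and NFKBIL1 at 0.10. The list medians were 1.10 for the subunits, 0.14 for the kinases, −0.08 for the ligase and −0.03 for the binders, against 2.32 for the IκB family.

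**Figure D4:**
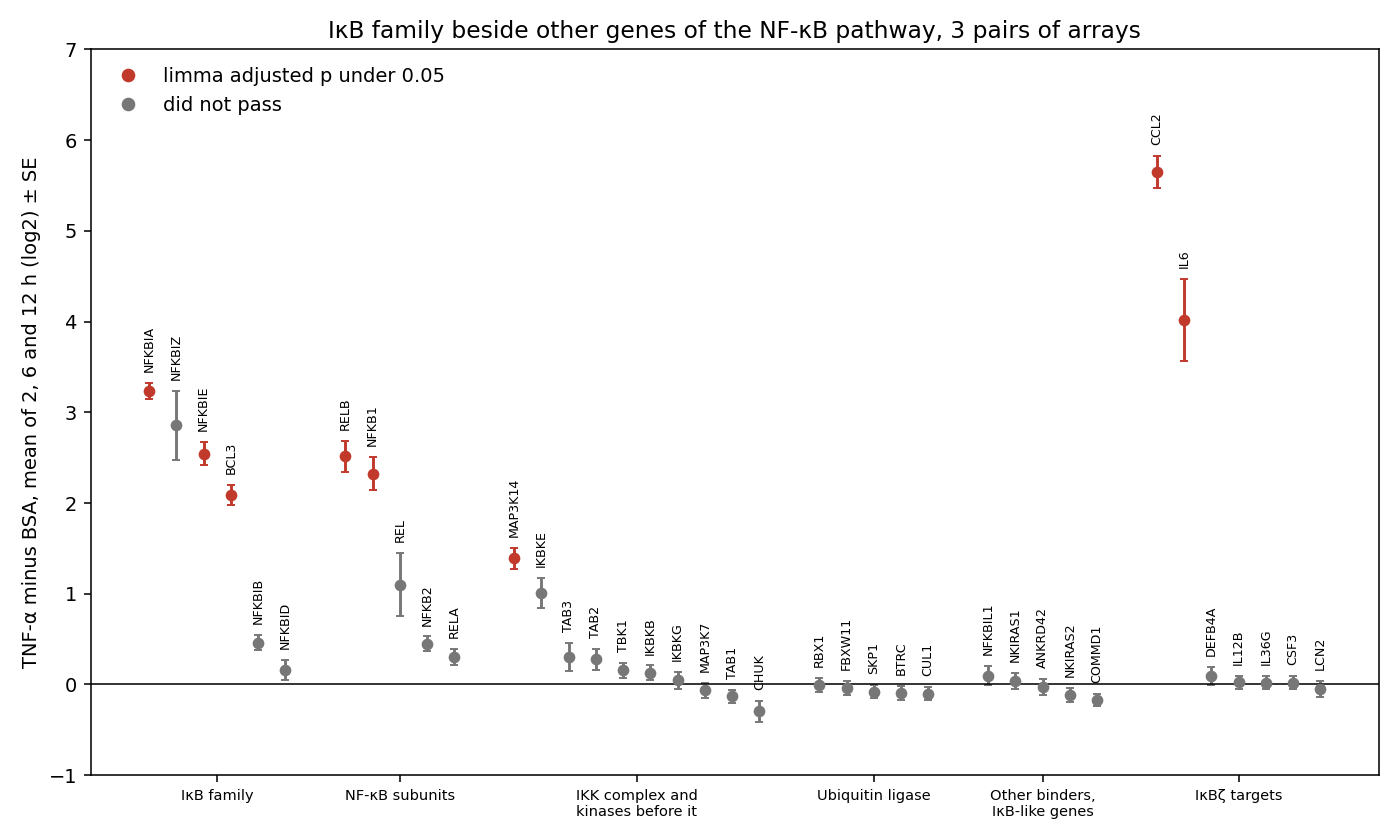
TNF-α minus BSA (log2) for each measured gene of 6 lists. Points are the mean of the 2, 6 and 12 h pairs ± limma's moderated SE (3 pairs of arrays). Red points passed at a limma adjusted p under 0.05. The 3 members that passed lie at 2.09 to 3.23, beside RELB and NFKB1 at 2.51 and 2.32, while the ligase genes and the other binders lie between −0.17 and 0.10.

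Of the 8 genes listed as known IκBζ targets 7 were measured, and 2 passed over 2, 6 and 12 h. IL6 rose by 4.02 ± 0.45 (limma adjusted p = 0.0464) and CCL2 by 5.65 ± 0.18 (0.00122). Over the 4 times they were 3.57 ± 0.53 and 4.85 ± 0.63 higher and did not pass (limma adjusted p = 0.368 each). The iron-binding protein LCN2 differed by −0.05 ± 0.09, the defensin DEFB4A by 0.09 ± 0.10 and IL12B by 0.03 ± 0.07, and these did not pass. The other measured targets, CSF3 and IL36G, were 0.02 higher each. The list's median was 0.03, and 5 of its 7 measured members did not pass. With BSA, LCN2, IL12B and IL36G read 2.69 to 3.50, where the lower quartile of the BSA arrays was 3.37 to 3.42. CSF3 read 3.99 to 4.34 and DEFB4A 4.92 to 5.23. The genes that passed were also low with BSA, IL6 at 4.16 to 4.36 and CCL2 at 3.44 to 4.52. Whether the probe sets of the dim, flat targets could register a rise was not tested. IL6 was 5.02, 4.49 and 2.54 higher at 2, 6 and 12 h, an order shared with NFKBIZ, and 2.22 at 24 h, where NFKBIZ was 2.74.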

How the data were processed

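The data were 8 arrays of NS-SV-AC cells, 1 per treatment and time. The deposited values are log2 intensities, 1 per probe set and array, made by the authors with RMA, per the submitters' processing notes. RMA corrects background, equalises the arrays' probe distributions and summarises probes. Which software ran it is not given in the sources used. Of 49386 probe sets, 45253 had 1 gene symbol in the platform's annotation and were used. Each of 18239 genes was represented by its brightest probe set, judged by the mean of all 8 arrays. Arrays give no read depth, so their number limits the precision.

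The two-sided tests used lmFit and eBayes of limma 3.58.1 (R 4.3.3), with time as a factor, over the 4 times (3 residual degrees of freedom) and over 2, 6 and 12 h (2), and with treatment, log2 hours and their product (4). Benjamini-Hochberg adjustment ran over every gene tested, with a threshold of 0.05. Nothing says that arrays came from separate cultures, so the p-values reflect only how much these arrays vary, change with time included. The fits were tested on simulated data. Named were all members, the genes of 5 pathway lists past the threshold plus up to 3 others per list with the largest differences over 2, 6 and 12 h, and the 5 genes nearest to each member that spanned at least 2 log2 units. CSF3 and IL36G were named after their values were seen. The members and lists were chosen with earlier results of these data known. Alternatives were the mean of probe sets, the brightest by BSA, every probe set, centring, renewed quantile normalization, a filter at the lower quartile, array weights and leaving out each time.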

Additional observations from a re-analysis of the deposited data

Results flagged for a closer look

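Differences of at least 2-fold in opposite directions at different times were found for 2 named genes. REL, an NF-κB subunit gene, differed by 2.14, 0.97 and 0.18 at 2, 6 and 12 h and by −1.17 at 24 h (TNF-α minus BSA, log2). SLC12A7, the gene nearest to BCL3 over 2, 6 and 12 h, differed by 2.21, 3.02 and 2.57 at those times and −1.20 at 24 h. Each value rests on 1 pair of arrays. The change of direction between single times was not tested. REL's slope with time had a limma adjusted p of 0.827. Both negative values come from the array whose GAPDH 3′ to 5′ gap was 6.28, and the part of RNA quality in them was not tested. Such values were common at that time. Of 18239 genes 1216 were at least 2-fold lower at 24 h, against 8, 70 and 153 at 2, 6 and 12 h.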

How the results depend on the processing

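Over the 4 times 3 genes were called. The count was 1 with the mean of probe sets, 62 with array quality weights and 0 to 67 when 1 time was left out. The members called, 1 of 6, became 2 of 15 probe sets when every probe set was tested, 4 with array weights, and 0 to 3 with 1 time left out. Over 2, 6 and 12 h 67 genes were called, 36 with the mean of probe sets and 0 to 1094 with 1 time left out, when 1 residual degree of freedom remained. The 3 members called became 2 with the mean of probe sets, where BCL3 did not pass. They became 5 of 15 probe sets when every probe set was tested, and 0 to 4 with 1 time left out. In the fit over the 4 times array weights gave the 24 h arrays 0.176 and the others at least 1.53. Slopes with time near 0 changed sign without passing: NFKBIA went to 0.040 after quantile normalization and 0.041 with array weights, and NFKBIB to −0.023 with the mean of probe sets and −0.020 with array weights. With 1 time left out the slope ranged from −0.12 to 0.13 for NFKBIA, −0.91 to 0.20 for NFKBIE and −0.80 to 0.11 for BCL3, the positive ends being without 2 h for NFKBIA and without 24 h for the others. The slope of NFKBIZ was −0.86 with array weights. Differences of the 6 members over the 4 times or over 2, 6 and 12 h kept their sign under every alternative run. The fits over the 4 times and over 2, 6 and 12 h were already paired by time, and no further pairing by replicate number could be made because the labels give none.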
